A study of Mus musculus with 24 samples.

Results

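The Piezo and TRP channel genes described here are Piezo1, Piezo2, Trpc1, Trpc6, Trpm4, Trpm7, Trpv2, Trpv4 and Pkd2. They were taken by symbol from the deposited table of estimated counts, in which all 9 of 9 were found among 20351 protein-coding genes. The RNA came from HL-1 cells, a single cell line derived from mouse atrial cardiomyocytes, and was sequenced as poly(A) mRNA from a stranded kit. All cells had been transduced 48 h earlier with adenovirus at an MOI of 30 and had been moved to serum-free DMEM. The 4 groups of 6 libraries were knockdown cells (shRNA against MuRF1, the ubiquitin ligase encoded by Trim63) with and without cyclic stretch, and control cells (scrambled shRNA) with and without cyclic stretch. Cyclic stretch was 15% at 1 Hz for a duration of 60 min, followed by immediate harvest. Unstretched cells stood in parallel, with 0 min of stretch. The stretch is called uniaxial in one place of the labels and biaxial in another.

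Piezo and TRP proteins are cation channels of the plasma membrane and of internal membranes, and several of them pass calcium when the membrane is stretched, when the cell swells or when a receptor activates phospholipase C. Piezo channels are opened directly by membrane tension, whereas for many TRP channels it is debated whether stretch acts on the channel itself or through lipids, receptors or partner proteins. In cardiac muscle these channels have been studied as sensors of load and as a source of the calcium that activates calcineurin and NFAT.

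Depth lay between 37.7 and 54.8 M estimated counts in 23 libraries and was 23.6 M in stretched control replicate 5. That library stood apart in other ways too. It lay at 54.7 on the second principal component, against -14.9 to 13.2 elsewhere, and mitochondrial genes took 1.45% of its counts, against 2.49% to 3.67% elsewhere. Unstretched knockdown replicate 4 also stood apart from its group: its chi-square per gene against the other 5 ran from 23.0 to 30.1, against 2.98 to 10.2 among those, and its mitochondrial share of 3.67% was the highest of all libraries. For Piezo1, Trpm4 and Trpm7, several changes that move when either library is left out are given with and without it. Stretched control replicate 5 was the lowest of its group for Trpc6 and the highest for Trpv4. Changes of Trpc6 and Trpv4 without it are not given singly. The ranges of values near 0 stand with the other settings. Trim63, the targeted gene, averaged 68.5 ± 7.92 CPM (counts scaled to library size) in stretched knockdown cells and 781 ± 81.7 CPM in stretched control cells (SD, n = 6 each), and 55.7 ± 1.17 CPM in unstretched knockdown cells and 640 ± 68.1 CPM in unstretched control cells. It was 91.2% lower with stretch and 91.3% lower without it, with a two-sided exact permutation p of 0.00216 in each case, the smallest that the 924 divisions of 12 libraries can give. Nothing in the labels ties replicates to separate cultures. P-values therefore measure only the spread between these samples, and it may be technical. Library codes in the labels carry 1 number per group, whose meaning is not given; should it stand for a batch, group and batch cannot be told apart.

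Markers of the atrial cardiomyocyte differed between knockdown and control cells. Their summed level over 10 listed genes ran between 1002 and 1039 CPM in stretched knockdown, 877 and 965 CPM in unstretched knockdown, 1744 and 2235 CPM in stretched control and 1881 and 2159 CPM in unstretched control libraries. Of the 9 that could be tested, 1 rose and 7 fell with knockdown in unstretched cells. Of all tested genes, 28.0% rose and 29.7% fell in that comparison. The atrial hormone gene Nppa stayed between 0.229 and 0.841 CPM in the 24 libraries, and sarcolipin (Sln) at no more than 6 estimated counts. A list of 7 fibroblast markers, carried mostly by Col1a1, summed to between 56.8 and 70.8 CPM in knockdown libraries and between 132 and 162 CPM in control libraries. Smooth muscle markers, carried mostly by Acta2, summed to between 1608 and 1822 CPM in knockdown libraries and between 2340 and 2726 CPM in control libraries. Of the 4 smooth muscle markers, 0 rose and 2 fell with knockdown without stretch, and 1 rose and 2 fell with stretch. The sum therefore does not stand for each marker. Of all tested genes, 25.1% rose and 26.9% fell with knockdown in stretched cells. Endothelial markers summed to at most 10.2 CPM and macrophage markers to at most 4.04 CPM in any library. No listed marker was at 0 in every library; Ptprc was not analysed here. What part these shifts have in the channel values was not tested, and in bulk RNA fewer cells of a type and less RNA per cell cannot be told apart.

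Scaled to the length of merged exons, the channel genes fell into 3 tiers. Piezo1 was the most abundant, with a mean level of 19.0 CPM per kb over the 24 libraries (SD 2.43). Pkd2 followed at 14.7 (SD 0.719), Trpm7 at 12.9 (SD 0.844), Trpv2 at 11.3 (SD 0.428) and Trpc1 at 10.1 CPM per kb (SD 0.387). In this upper tier each gene's range over libraries overlapped that of its neighbour in the order. All 5 stood above the median of 5.96 CPM per kb of the 13396 tested genes with a known length, between percentile 63.2 and percentile 78.0. Trpm4 formed a tier of its own at 2.49 CPM per kb (SD 0.318), percentile 33.6. Trpc6 at 0.384 (SD 0.0576) and Trpv4 at 0.306 CPM per kb (SD 0.109) were lowest of the tested channels and overlapped each other, at percentiles 16.4 and 14.8. With the longest coding transcript as the length, Pkd2 came first at 28.6 CPM per kb and Piezo1 second at 22.9 CPM per kb.

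**Figure D1:**
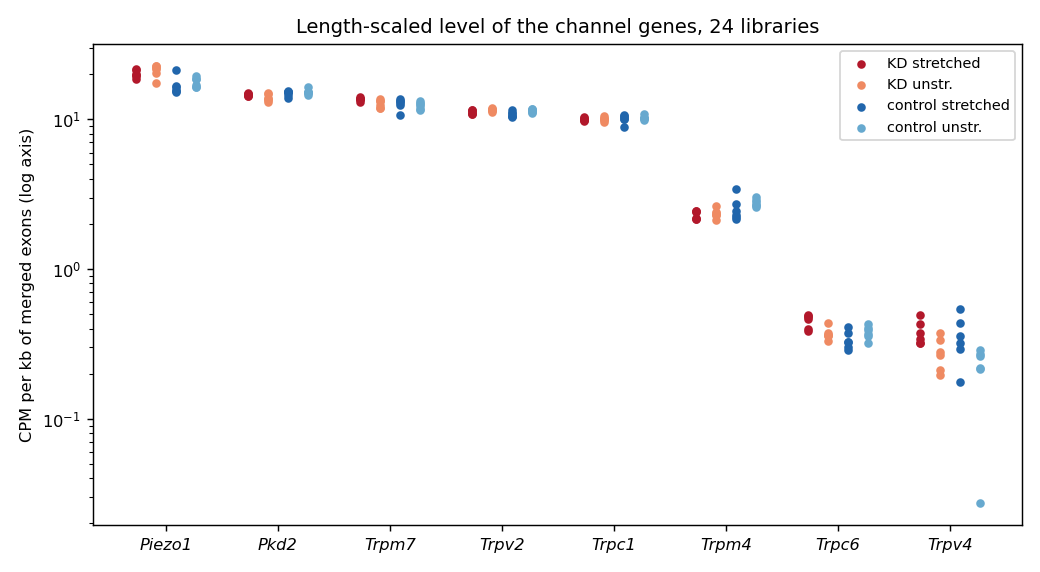
Level of each tested channel gene in CPM per kb of merged exons on a log axis, with 1 point per library and the 4 groups side by side. Piezo1, Pkd2, Trpm7, Trpv2 and Trpc1 lie between 8.89 and 22.8 CPM per kb, Trpm4 between 2.11 and 3.43 CPM per kb, and Trpc6 and Trpv4 below 0.55 CPM per kb in every library.

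Piezo2, the relative of Piezo1 that serves touch and proprioception in sensory neurons, was close to undetected. It had 1 estimated count in stretched knockdown replicate 1, 1.35 in unstretched knockdown replicate 5, 1 in stretched control replicate 3 and 0 in the other 21 libraries. A count of 0 allows an expected count of up to 3 in a library. A level under that can go undetected, so a 0 does not show absence. Piezo2 did not pass the filter on low counts, and 8 of the 9 channel genes were tested.

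In the tests below, knockdown changed 3 of 8 channels without stretch and 2 of 8 with it, beside 57.8% and 52.0% of tested genes. The bases before the annotated starts of these channels, where RefSeq had an entry, are shown first. These are the 250 bases upstream of the start of Piezo1 (chr8:122551330-122551579, minus strand), Trpc6 (chr9:8543892-8544141, plus strand) and Pkd2 (chr5:104459207-104459456, plus strand), from RefSeq on GRCm38.p6, 5′ to 3′. Capitals mark the motif GGAATG of TEAD factors, the partners of the stretch-responsive coactivator YAP. Trpm4 had no entry.
Piezo1: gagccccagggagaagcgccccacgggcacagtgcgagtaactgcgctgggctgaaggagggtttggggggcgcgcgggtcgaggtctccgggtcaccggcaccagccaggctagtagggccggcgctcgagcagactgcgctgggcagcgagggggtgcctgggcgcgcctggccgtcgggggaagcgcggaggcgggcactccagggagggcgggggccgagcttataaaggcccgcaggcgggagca
Trpc6: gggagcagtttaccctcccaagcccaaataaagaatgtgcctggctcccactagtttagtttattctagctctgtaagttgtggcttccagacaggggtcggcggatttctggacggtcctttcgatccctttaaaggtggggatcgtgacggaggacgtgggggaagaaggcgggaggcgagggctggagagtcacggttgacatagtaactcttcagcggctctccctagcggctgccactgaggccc
Pkd2: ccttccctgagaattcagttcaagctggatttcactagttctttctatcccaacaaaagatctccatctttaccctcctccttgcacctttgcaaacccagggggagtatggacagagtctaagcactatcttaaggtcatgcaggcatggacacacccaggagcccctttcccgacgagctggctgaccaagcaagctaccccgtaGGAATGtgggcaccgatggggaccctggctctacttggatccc

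Base composition differed between them. In windows of 250 bases before to 50 after the start, Piezo1 had a GC content of 75.0% with 34 CpG dinucleotides, Trpc6 60.0% with 17 and Pkd2 55.3% with 9. The median of 32851 RefSeq windows of that length was 52.7% with 7 CpG dinucleotides. In all, 7 of the 9 channel genes matched an entry, with 9 windows. GGAATG, read on both strands, lay 43 bases before the start of Pkd2 on its own strand and 188 bases before the third annotated start of Trpv2 on the opposite strand, so in 2 of the 9 windows, and 14.7% of all windows held it. TGANTCA, the AP-1 motif, was in none of the 9 and in 7.81% of all windows. The serum response element was searched as a single exact sequence, which was in none of the 9 and in 0.0639% of all windows. Other sequences of this element were not searched, so its absence from the 9 windows is not shown. These motifs do not overlap one another, and a match describes letters only.

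Stretched cells were compared with unstretched cells of the same kind, and knockdown cells with control cells of the same stretch state. The interaction is the stretch response of knockdown cells minus that of control cells, which makes 5 comparisons in all. Some of them share libraries, and each is read on its own. Genes were called by edgeR's quasi-likelihood test at a Benjamini-Hochberg adjusted p under 0.05 over 14411 tested genes.

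No channel passed the test for stretch. In control cells edgeR called 0 of 8, beside 5.95% of all tested genes (2.55% higher and 3.39% lower), and in knockdown cells 0 of 8, beside 8.93% (5.32% higher and 3.61% lower). At an unadjusted p under 0.05 edgeR had 2 in control cells (Trpv2 and Trpv4) and 1 in knockdown cells (Trpc6), while DESeq2 and limma-voom called 0 in each. The share of all tested genes at that unadjusted threshold is not given. Counts at it, here and below, are therefore not read as results. Knockdown changed 3 of 8 without stretch, beside 57.8% of all tested genes (28.0% higher and 29.7% lower), with Piezo1 higher and Trpm4 and Pkd2 lower. With stretch it changed 2 of 8, beside 52.0% (25.1% higher and 26.9% lower), with Piezo1 and Trpc6 higher. Both counts lie below the share of all genes called, and nothing particular to the channels is read from this. No channel had groups that lay fully apart in any of the 4 comparisons between groups, as 3.19% and 5.44% of all tested genes had for stretch in control and in knockdown cells, and 37.7% and 31.9% for knockdown without and with stretch. The median size of the log2 fold change of the 8 channels was 0.08 without stretch and 0.11 with stretch, against 0.20 and 0.17 over all tested genes. The interaction had 0 calls among the 8 by edgeR, DESeq2 and limma-voom, beside 0.0208% of all tested genes, and 1 at an unadjusted p under 0.05 (Trpc6).

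**Figure D2:**
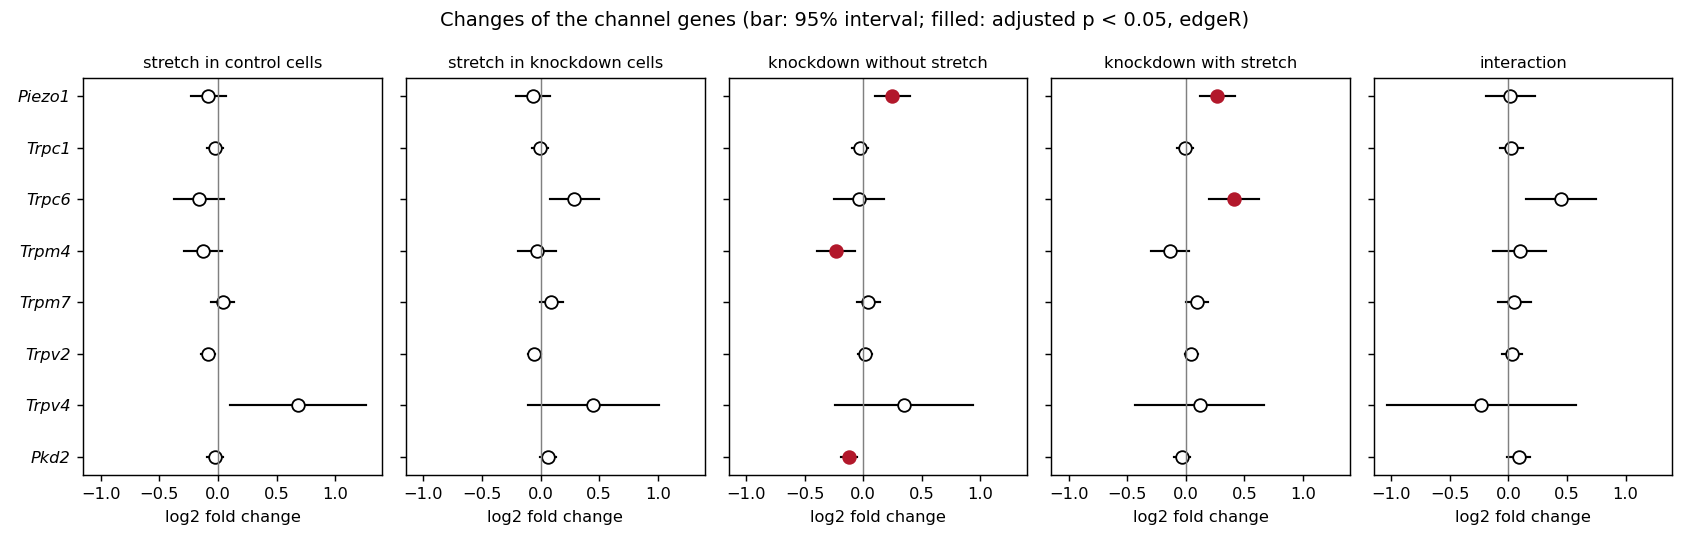
Log2 fold change of each tested channel gene (points) with its 95% interval (bars) in the 5 comparisons; filled points passed edgeR's adjusted p under 0.05. The filled points are Piezo1, Trpm4 and Pkd2 for knockdown without stretch, at 0.25, -0.23 and -0.12, and Piezo1 and Trpc6 for knockdown with stretch, at 0.27 and 0.41.

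Piezo1 encodes a trimeric channel that opens under membrane tension and lets calcium in. The gene (ENSMUSG00000014444) lies at chr8:122481698-122551329 on the minus strand of GRCm38, and its longest coding transcript has 51 exons. In unstretched cells Piezo1 had a lowest, median and highest level of 172, 216 and 226 CPM in knockdown libraries, against 163, 177 and 194 CPM in control libraries. In stretched cells it had 185, 199 and 216 CPM in knockdown libraries, against 152, 159 and 212 CPM in control libraries. Without stretch 5 of 6 knockdown libraries were above all control libraries, and the sixth, replicate 4, was at 172 CPM. With stretch the groups overlapped through control replicate 5 at 212 CPM, the other 5 control libraries lying between 152 and 166 CPM, below every knockdown library.

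Piezo1 rose with knockdown by a log2 fold change of 0.25 without stretch (SE 0.0721, edgeR adjusted p = 0.00468) and by 0.27 with stretch (SE 0.0723, edgeR adjusted p = 0.00317), which are levels 18.9% and 20.3% higher. Their 95% intervals were 0.10 to 0.40 and 0.12 to 0.42. Without stretched control replicate 5 the change with stretch was 0.34, and without unstretched knockdown replicate 4 the change in unstretched cells was 0.33. Stretch gave -0.07 in knockdown cells (95% interval -0.21 to 0.08; -0.12 without unstretched knockdown replicate 4) and -0.08 in control cells (-0.23 to 0.07; edgeR adjusted p = 0.561). Without stretched control replicate 5 the value in control cells was -0.16, with an edgeR adjusted p of 0.0720. The interaction of 0.02 had an interval of -0.19 to 0.23.

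Part of the Piezo1 locus is shared with another gene. Ctu2, a tRNA-thiolation gene on the opposite strand, overlaps 2441 bases of exon, which is 24.6% of the 9935 bases of merged Piezo1 exons. No source here says if reads were counted by strand. Ctu2 averaged 40.1 ± 2.21 CPM in unstretched knockdown and 36.8 ± 1.64 CPM in unstretched control libraries, differing by 0.12 on the log2 scale with an edgeR adjusted p of 0.00672. With stretch it averaged 37.8 ± 0.943 CPM in knockdown and 37.0 ± 1.80 CPM in control libraries. Its part in the Piezo1 values was not tested.

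**Figure D3:**
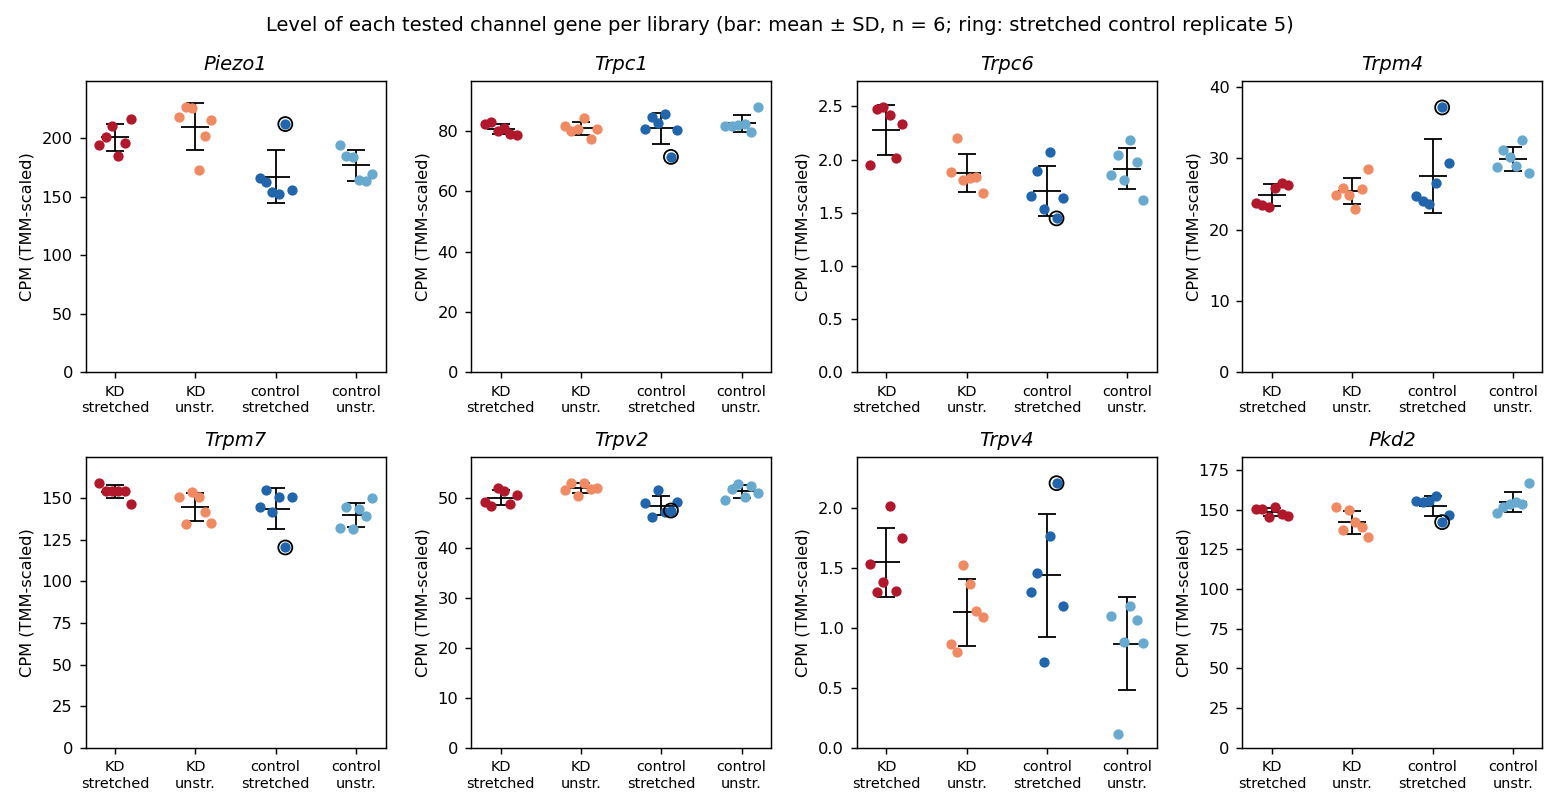
Level in CPM (after TMM scaling, linear axes starting at 0) of the 8 tested channel genes in each library, with the mean and SD of each group of 6; the ring marks stretched control replicate 5. That library is the highest of its group for Piezo1 (212 CPM), Trpm4 (37.2 CPM) and Trpv4 (2.21 CPM) and the lowest for Trpc1 (71.4 CPM), Trpm7 (120 CPM), Trpc6 (1.45 CPM) and Pkd2 (142 CPM).

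Trpc6 encodes a channel gated by diacylglycerol, the lipid that phospholipase C releases, and its gene is a known target of NFAT in cardiac hypertrophy. It (ENSMUSG00000031997) lies at chr9:8544142-8680741 on the plus strand. With stretch Trpc6 had 1.95, 2.37 and 2.49 CPM (lowest, median, highest) in knockdown libraries, against 1.45, 1.65 and 2.07 CPM in control libraries. Without stretch it had 1.68, 1.83 and 2.21 CPM in knockdown libraries, against 1.62, 1.92 and 2.18 CPM in control libraries. Of the 6 stretched knockdown libraries, 4 were above all stretched control libraries and 4 above all unstretched knockdown libraries, and all groups overlapped. These levels rest on between 35.4 and 134 estimated counts per library.

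Trpc6 rose with knockdown in stretched cells by a log2 fold change of 0.41 (SE 0.103, 95% interval 0.20 to 0.62, edgeR adjusted p = 0.00152), which is 1.33-fold. In unstretched cells the same contrast gave -0.04 (95% interval -0.25 to 0.17, edgeR adjusted p = 0.778). Stretch gave 0.29 in knockdown cells (0.08 to 0.49, edgeR adjusted p = 0.0794) and -0.16 in control cells (-0.38 to 0.05, edgeR adjusted p = 0.400). The interaction was 0.45 (SE 0.146, 95% interval 0.15 to 0.75), with an unadjusted p of 0.00509 and an adjusted p of 0.289 by edgeR over all genes. It was larger in size than the interaction of 94.5% of tested genes, and its SE was larger than that of 73.7% of them. It missed the threshold after adjustment, so a difference between the stretch responses was not shown.

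Trpc1 encodes a subunit that joins other TRPC proteins in receptor-operated and store-operated channels. The gene (ENSMUSG00000032839) lies at chr9:95705082-95750375 on the minus strand. In stretched cells it had 78.7, 80.5 and 82.9 CPM in knockdown libraries, against 71.4, 81.5 and 85.7 CPM in control libraries. In unstretched cells it had 77.5, 80.7 and 84.4 CPM in knockdown libraries, against 79.6, 81.8 and 87.8 CPM in control libraries. The 4 groups overlapped throughout. Its log2 fold changes lay between -0.03 and 0.02 over the 5 comparisons, with 95% intervals that stayed between -0.10 and 0.12.

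Trpm4 encodes a channel that calcium opens and that passes sodium and potassium but hardly any calcium. The gene (ENSMUSG00000038260) lies at chr7:45302632-45333780 on the minus strand. Without stretch Trpm4 had 22.9, 25.3 and 28.5 CPM in knockdown libraries, against 27.9, 29.6 and 32.6 CPM in control libraries. With stretch it had 23.2, 24.8 and 26.6 CPM in knockdown libraries, against 23.5, 25.6 and 37.2 CPM in control libraries. Without stretch 5 of 6 knockdown libraries were below all control libraries, and with stretch the groups overlapped, control replicate 5 being highest of all 24 libraries.

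Trpm4 fell with knockdown in unstretched cells by 0.23 on the log2 scale (SE 0.0781, 95% interval -0.40 to -0.07, edgeR adjusted p = 0.0121), a level 15.0% lower. This call was lost without unstretched knockdown replicate 4, the library that stood apart from its group and the lowest at 22.9 CPM, where the change was -0.18 with an edgeR adjusted p of 0.0651. With stretch the change was -0.14 (95% interval -0.30 to 0.02, edgeR adjusted p = 0.146), and -0.05 without stretched control replicate 5. Stretch gave -0.03 in knockdown cells (95% interval -0.20 to 0.13), and -0.06 without unstretched knockdown replicate 4. In control cells stretch gave -0.13 (95% interval -0.29 to 0.03, edgeR adjusted p = 0.358) with all libraries. Without stretched control replicate 5 it gave -0.22, with an edgeR adjusted p of 0.00875. Trpm4 in stretched control cells thus depended on that single library, both in size and in its call.

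Trpm7 encodes a magnesium and calcium channel fused to a protein kinase. The gene (ENSMUSG00000027365) lies at chr2:126791565-126876230 on the minus strand. In stretched cells it had 147, 154 and 159 CPM in knockdown libraries, against 120, 148 and 155 CPM in control libraries. In unstretched cells it had 135, 146 and 154 CPM in knockdown libraries, against 131, 141 and 150 CPM in control libraries. The groups overlapped in both pairs, with a narrow spread in stretched knockdown libraries (SD 4.02 CPM) and a wide one in stretched control libraries (SD 12.5 CPM), whose lowest value was replicate 5. With stretch the knockdown change was 0.10 (SE 0.0472, 95% interval -0.0012 to 0.19, edgeR adjusted p = 0.0926). It passed the threshold with DESeq2 (0.11, adjusted p = 0.0413) and under several other settings, and it was 0.05 without stretched control replicate 5. Stretch gave 0.09 in knockdown cells (95% interval -0.01 to 0.19) and 0.04 in control cells (-0.06 to 0.14), where leaving out stretched control replicate 5 gave 0.08.

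Trpv2 encodes a channel found at the intercalated disc, and in mice its loss in cardiomyocytes disrupts the structure of the heart. The gene (ENSMUSG00000018507) lies at chr11:62574486-62600515 on the plus strand. Trpv2 had 48.5, 49.9 and 52.0 CPM in stretched knockdown libraries, against 50.5, 52.0 and 53.0 CPM in unstretched knockdown libraries. It had 46.2, 48.3 and 51.5 CPM in stretched control libraries, against 49.7, 51.5 and 52.9 CPM in unstretched control libraries. In control cells 5 of 6 stretched libraries were below all unstretched libraries, and in knockdown cells 3 of 6 were. Stretch gave a log2 difference of -0.05 in knockdown cells (95% interval -0.11 to 0.0040, edgeR adjusted p = 0.266). In control cells it gave -0.08 (SE 0.0284, 95% interval -0.14 to -0.03, edgeR adjusted p = 0.0759). Without stretched control replicate 3 the value in control cells was -0.10, with an edgeR adjusted p of 0.0377. Knockdown gave 0.02 without stretch and 0.05 with it, neither passing the threshold.

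Trpv4 encodes a channel opened by cell swelling, warmth and lipid messengers. The gene (ENSMUSG00000014158) lies at chr5:114622152-114658421 on the minus strand. Trpv4 had 1.30, 1.46 and 2.02 CPM in stretched knockdown libraries, against 0.799, 1.11 and 1.52 CPM in unstretched knockdown libraries. It had 0.712, 1.38 and 2.21 CPM in stretched control libraries, against 0.111, 0.973 and 1.18 CPM in unstretched control libraries. Medians were higher in stretched cells of both kinds, and the groups overlapped. The levels rest on at most 91.0 estimated counts per library and on 4.07 in unstretched control replicate 2. Stretch gave a log2 difference of 0.45 in knockdown cells (SE 0.272, 95% interval -0.11 to 1.01, edgeR adjusted p = 0.350) and 0.68 in control cells (SE 0.283, 95% interval 0.10 to 1.27, edgeR adjusted p = 0.156). Without unstretched control replicate 2 the value in control cells was 0.47. These intervals are the widest among the 8 channels, and a difference of up to 2.40-fold in control cells lay within them.

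Pkd2 encodes polycystin-2, a calcium-permeable channel of the endoplasmic reticulum and the primary cilium whose human counterpart is mutated in polycystic kidney disease. The gene (ENSMUSG00000034462) lies at chr5:104459450-104505819 on the plus strand, and the bases before its start are shown above. Without stretch Pkd2 had 133, 141 and 151 CPM in knockdown libraries, against 148, 154 and 167 CPM in control libraries. With stretch it had 146, 149 and 151 CPM in knockdown libraries, against 142, 155 and 158 CPM in control libraries. Without stretch 4 of 6 knockdown libraries were below all control libraries, and with stretch the groups overlapped.

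Pkd2 fell with knockdown in unstretched cells by 0.12 on the log2 scale (SE 0.0333, 95% interval -0.19 to -0.05, edgeR adjusted p = 0.00255), a level 8.15% lower. With stretch the change was -0.04 (95% interval -0.10 to 0.03, edgeR adjusted p = 0.390). Stretch gave 0.06 in knockdown cells (-0.0048 to 0.13) and -0.02 in control cells (-0.09 to 0.05). The interaction of 0.09 had an interval of -0.01 to 0.18.

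For the called channels, the genes most alike in level across the 24 libraries were found among 11322 genes by Pearson's r of log2 CPM, as a description. All of these correlations share the libraries, their depth and the separation of knockdown from control cells. The libraries include stretched control replicate 5 and unstretched knockdown replicate 4, and no correlation was computed without them. Piezo1 was most like Spen (r = 0.945), Kif7 (0.945) and Slc9a5 (0.944). Trpm4 was most like Mknk2 (0.913), Kdm4b (0.903) and Mfsd12 (0.901). Pkd2 was most like Nfat5 (0.905), Rmnd5a (0.894) and Arfgef1 (0.887). For Trpc6, a gene of low counts, the highest values were those of B3gnt2 (0.701), Polq (0.690) and Efcab14 (0.689).

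Most of the other TRP genes were too low to test. Of 21 further TRP genes, 8 could be tested, and the other 13 had at most 33.7 estimated counts in any library. Trpm5, a channel for monovalent cations that calcium opens and that is known from taste cells, rose with stretch. It averaged 1.78 ± 0.258 CPM in stretched and 0.877 ± 0.183 CPM in unstretched knockdown libraries, a log2 fold change of 1.01 (edgeR adjusted p = 1.46e-05). In control cells Trpm5 averaged 3.26 ± 0.325 CPM with stretch and 1.99 ± 0.265 CPM without it, a change of 0.70 (edgeR adjusted p = 0.000609). It was lower with knockdown, by a log2 fold change of -1.18 without stretch and -0.87 with it. No group of Trpm5 values overlapped its counterpart in these comparisons, as in 5.44% of tested genes for stretch in knockdown cells and 3.19% in control cells, and in 37.7% for knockdown without stretch and 31.9% with stretch. The only other TRP gene of this list that passed with stretch was Pkd2l2, a relative of Pkd2, at 0.26 in control cells. Stretch thus called 2 of 8 in control and 1 of 8 in knockdown cells, beside 5.95% and 8.93% of all tested genes. Knockdown called 4 higher and 1 lower of the 8 without stretch, beside 57.8% of all tested genes called, and 4 higher and 2 lower with stretch, beside 52.0%. Among them Trpm1 had changes of 0.59 without stretch and 0.60 with it.

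Among genes whose proteins bind or modulate these and related channels, those that passed with knockdown were all lower. Of 10 listed partners, all tested, 5 fell without stretch and 5 fell with stretch, and the rest did not pass. Of all tested genes 57.8% were called without stretch (29.7% lower) and 52.0% with stretch (26.9% lower), so the number of partners called is near the background. Cav3, the muscle caveolin, averaged 35.4 ± 1.25 CPM in unstretched knockdown and 79.0 ± 3.14 CPM in unstretched control libraries, which is a log2 fold change of -1.16 (edgeR adjusted p = 9.33e-17). With stretch Cav3 averaged 37.5 ± 1.80 CPM in knockdown and 76.0 ± 8.15 CPM in control libraries, a change of -1.02. Cav1 had -0.59 and -0.65, Stom, a membrane scaffold protein that modulates ion channels, -0.43 and -0.34, and Mdfic, an auxiliary subunit of Piezo channels, -0.23 and -0.37. The median change of the list was -0.13 without stretch and -0.15 with stretch, against 0.01 and 0.00 over all genes. Cav3 is a muscle gene, and the atrial markers given above also fell; its part among them was not tested. Stretch called 0 partners in either kind of cell by edgeR, DESeq2 and limma-voom, with 2 in control and 1 in knockdown cells at an unadjusted p under 0.05. Beside this, edgeR called 5.95% of all tested genes in control and 8.93% in knockdown cells. Without stretched control replicate 5 stretch called 3 partners in control cells, which were Pkd1, Homer1 and Mtmr2, named after their values were seen. Over all 14411 tested genes it then called 2020, against 857 with all libraries.

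**Figure D4:**
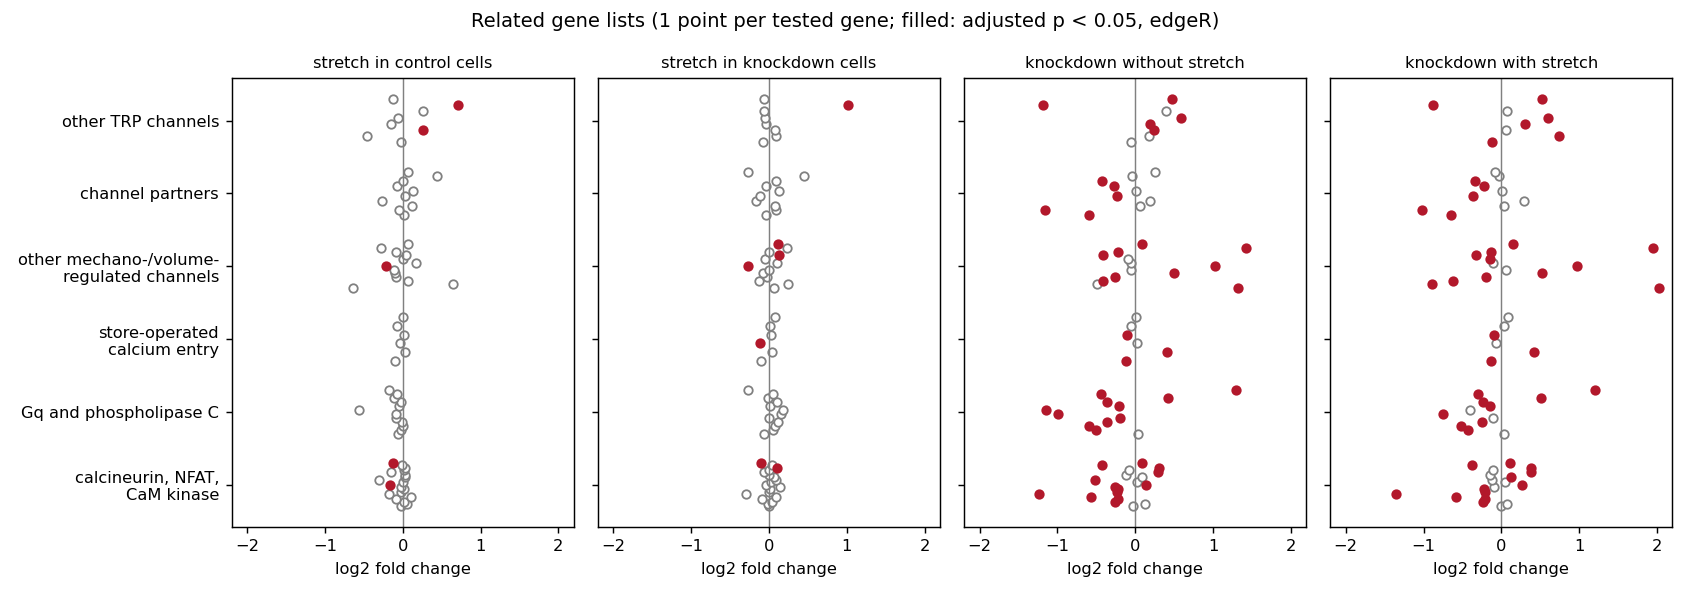
Log2 fold change of each tested gene in 6 lists of related genes (1 point per gene) in the 4 comparisons between groups; filled points passed edgeR's adjusted p under 0.05. In the channel partners all called points lie below 0 for knockdown, down to -1.16 and -1.02 (Cav3), while few points are filled for stretch.

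Other mechanically gated or volume-regulated channels split in both directions. Of 17 listed, 13 were tested; knockdown called 5 higher and 4 lower without stretch, and 5 higher and 6 lower with stretch, beside 57.8% and 52.0% of all tested genes called in either direction. Lrrc8d, a subunit of the volume-regulated anion channel, averaged 17.2 ± 0.834 CPM in unstretched knockdown and 8.44 ± 0.579 CPM in unstretched control libraries, a change of 1.02 (edgeR adjusted p = 1.34e-14), and had 0.97 with stretch. Its partner subunits went both ways, Lrrc8b with 0.50 and 0.52 and the obligatory subunit Lrrc8a with -0.26 and -0.20. Tmem63a, a stretch-activated cation channel, had -0.41 and -0.32. Under stretch Lrrc8d fell in knockdown cells (-0.28, edgeR adjusted p = 0.00183) and in control cells (-0.22, edgeR adjusted p = 0.0334), and this call in control cells was lost under 9 of 33 other settings. Tmem63a rose by 0.13 and Tmem87a by 0.11 with stretch in knockdown cells, the Tmem87a call being lost under 2 of 33 other settings. With all libraries stretch called 1 of 13 in control and 3 of 13 in knockdown cells, beside 5.95% and 8.93% of tested genes. Stretch called 3 genes of this list in control cells without stretched control replicate 5, against 1 with it. Over all 14411 tested genes the same fits called 2020 and 857.

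Store-operated calcium entry, in which Stim proteins open Orai channels, is also discussed for Trpc1. All 6 listed genes were tested. Stretch called 0 in control cells (1 at an unadjusted p under 0.05, 0 by DESeq2 and limma-voom) and 1 in knockdown cells, Orai3 at -0.12, a call lost under 6 of 33 other settings. Of all tested genes stretch called 5.95% in control and 8.93% in knockdown cells. It called 1 in control cells without stretched control replicate 5, which was Stim1, beside 2020 of all 14411 tested genes. Knockdown called 1 higher and 2 lower in each pair, a share no larger than the 57.8% and 52.0% of all tested genes. These were Orai2 with 0.42 and 0.43, Saraf with -0.10 and -0.09 and Orai1 with -0.12 and -0.13. The 2 Saraf calls were each lost under 1 of 33 other settings, and the Orai1 calls under 4 and 3.

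In the Gq and phospholipase C list, whose products gate Trpc6 and release stored calcium, 12 of 12 genes were tested. With knockdown 2 rose and 9 fell without stretch, beside 28.0% of all tested genes higher and 29.7% lower, and 2 rose and 7 fell with stretch, beside 25.1% higher and 26.9% lower. Itpr1, a calcium release channel opened by inositol trisphosphate, averaged 200 ± 9.24 CPM in unstretched knockdown and 301 ± 6.49 CPM in unstretched control libraries, a change of -0.59 (edgeR adjusted p = 9.11e-17), and had -0.51 with stretch. Plcb1 had -0.99 and -0.75, Gnaq, the Gq subunit itself, -0.50 and -0.43, and Plcg1 -0.43 and -0.30. The median change of the list was -0.36 without stretch and -0.24 with stretch, against 0.01 and 0.00 over all genes; nothing particular to the list is read from these counts and medians. With stretch edgeR called 0 in either kind of cell, with 2 in control and 3 in knockdown cells at an unadjusted p under 0.05. Over all tested genes the calls were 5.95% in control and 8.93% in knockdown cells. DESeq2 and limma-voom called 0 in control and 1 in knockdown cells. Without stretched control replicate 5 edgeR called 3 in control and 1 in knockdown cells, beside 2020 and 1933 of all 14411 tested genes. It also called 1 in knockdown cells without unstretched knockdown replicate 1, 3 or 4, each left out alone.

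Of 20 genes of calcineurin, NFAT and CaM kinase signalling, 19 were tested. Knockdown called 4 higher and 9 lower without stretch, and 5 higher and 7 lower with stretch, near the 57.8% and 52.0% of all tested genes called. Rcan1, a calcineurin inhibitor that NFAT induces, averaged 67.4 ± 1.63 CPM in unstretched knockdown and 54.3 ± 1.38 CPM in unstretched control libraries, a change of 0.31 (edgeR adjusted p = 3.76e-11), and had 0.38 with stretch. Camk2a had -0.57 and -0.58 and Camk2b -1.23 and -1.35. Stretch called 2 of 19 in control and 2 of 19 in knockdown cells, beside 5.95% and 8.93% of all tested genes. With stretch Rcan1 rose by 0.10 in knockdown cells and Nfatc1 fell by 0.17 in control cells. Rcan3 fell by 0.10 in knockdown cells and by 0.13 in control cells, calls that were lost under 24 and 4 of 33 other settings. The interaction called 0 genes in any of these 6 lists by edgeR, DESeq2 or limma-voom, with between 0 and 4 per list at an unadjusted p under 0.05.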

How the data were processed

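Poly(A) mRNA of 24 HL-1 libraries was measured, 6 in each of 4 groups. The authors deposited estimated counts per gene, of which 36.6% were whole within 1e-09, and a normalized signal for the same genes. Tools were kallisto 0.44.0, R 3.4.4 and DESeq2 1.18.1 with the GRCm38.p6 build, per the submitters' processing notes; the sources used here do not give the annotation release, the step from transcripts to genes or the use of strand. The deposited signal served as an alternative scaling; over genes with at least 10 counts its ratio to the count had a median CV of 7.21% within a library.

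Estimated counts were rounded and tested with edgeR 4.0.16 (R 4.3.3; TMM; filterByExpr with minimum count 10 and minimum total 15, 14411 genes; robust quasi-likelihood fit of all 24 libraries, 20 residual degrees of freedom; Benjamini-Hochberg over all tested genes, threshold 0.05). Intervals are 95% and, like the limit of 3 counts behind a 0, cover the spread or the counting error of these libraries only. The scripts were tested on simulated data. The lowest chi-square per gene among 60 pairs of replicates was 2.85, so all were kept as separate libraries. Positions and lengths are from GENCODE vM21 on GRCm38, and upstream bases from RefSeq on GRCm38.p6.

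The channel genes, lists, motifs, tests and alternatives were chosen with earlier results of these data known. The 9 channel genes are given in full. From each other list and comparison at most 4 called genes with the smallest adjusted p were named. For each called channel the 3 genes with the highest Pearson's r were named, among genes of average log2 CPM 1 or more without clone names.

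Alternatives were DESeq2 size factors, no filter, a minimum count of 50, the replicate number or the code letter as a block, only the groups compared, limma-voom (limma 3.58.1), limma on log2 of the signal plus 1, DESeq2 1.42.0, the longest transcript as length, and each library left out in turn.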

Additional observations from a re-analysis of the deposited data

Results flagged for a closer look

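A library lay far from the other 5 of its group for 5 channel values and 1 value of Trim63, among 36 groups of 6 checked with Dixon's test, in which the gap to the nearest library exceeded 0.625 of the group's range. Chance alone gives this in about 1 in 20 groups. Stretched control replicate 5 was high for Piezo1, at 212 CPM against 152 to 166 CPM in the other libraries of its group, and low for Trpc1, at 71.4 CPM against 80.4 to 85.7 CPM. Unstretched control replicate 6 was high for Trpc1, at 87.8 CPM against 79.6 to 82.5 CPM, and for Pkd2, at 167 CPM against 148 to 155 CPM. Unstretched control replicate 2 was low for Trpv4, at 0.111 CPM against 0.870 to 1.18 CPM. Trim63 was high in stretched knockdown replicate 1, at 83.5 CPM against 60.0 to 67.9 CPM.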

How the results depend on the processing

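Each of the 40 channel results, of which 5 were called, was recomputed under up to 9 other settings and 24 times with a library left out; a fit of only the groups compared gives no interaction. Of these 1312 values, 1271 kept their direction and their side of the threshold. With the replicate number as a block, stretch called 0 channels in either kind of cell, knockdown 3 without and 2 with stretch, and the interaction 0; over all genes the interaction then had 9 calls, the one count the block moved by over 1.5 times, and no other call of a channel changed. Same-numbered libraries of different groups correlated at -0.0638 to 0.147 in their deviations, so the numbers are not taken to pair them. The code letter as a block gave the same channel counts and 45 interaction calls.

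With a library left out, Piezo1 kept its call at 0.23 to 0.33 without and 0.24 to 0.34 with stretch, Pkd2 at -0.14 to -0.10 and Trpc6 at 0.37 to 0.48. Trpm4 without stretch ran from -0.27 to -0.18 and lost its call once, as given above. Calls were gained for Trpm4 and Trpv2 under stretch in control cells, 1 library out each, and for Trpm7 under knockdown with stretch, with DESeq2 size factors, no filter, the authors' signal (0.14), DESeq2, and without stretched control replicate 2 or unstretched knockdown replicate 4.

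Values near 0 changed sign. For Trpc1 these were stretch in knockdown cells with DESeq2 size factors (0.00015), the stricter filter (0.0035) and DESeq2 (0.00055), knockdown without stretch with no filter (0.0075), and knockdown with stretch with DESeq2 size factors (0.0056), no filter (0.014), only the groups compared (0.0057), the authors' signal (0.022) and DESeq2 (0.0040). Trpm7 under stretch in control cells had -0.0039 with the authors' signal, and the Piezo1 interaction -0.00040 with no filter. With a library left out, Trpc1 ran from -0.044 to 0.0049 for stretch in control cells, -0.015 to 0.011 for stretch in knockdown cells, -0.037 to 0.012 for knockdown with stretch and -0.0071 to 0.042 for the interaction. Trpc6 ran from -0.092 to 0.0036 for knockdown without stretch, Trpv4 from -0.018 to 0.25 for knockdown with stretch, and the Piezo1 interaction from -0.050 to 0.095. The cause was not tested.

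Counts over all genes moved more. Stretch in control cells had 377 calls with only the groups compared, 558 with the authors' signal and 566 to 2020 with a library left out, with 2020 without stretched control replicate 5 and 566, 567 and 571 without stretched control replicates 3 and 1 and unstretched control replicate 4; channels called there were 0 to 1. Stretch in knockdown cells had 866 to 1933, the highest also without stretched control replicate 5. The interaction had 1 with the authors' signal, 122 with DESeq2 and 0 to 109 with a library left out, with 109 without stretched control replicate 5 and 52 without unstretched knockdown replicate 6. With the longest coding transcript, levels in CPM per kb were 22.9 for Piezo1, 28.6 for Pkd2, 20.5 for Trpm7, 17.8 for Trpc1, 17.4 for Trpv2, 6.37 for Trpm4 and 0.596 for Trpc6. Trpc6 and Trpv4 have too few counts for small changes to be detectable.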
